A study of Mus musculus with 10 samples.

Results

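Blood is kept fluid inside vessels and clots outside them through a small set of proteins made by the vessel wall. Tissue factor (*F3*) starts coagulation and is held back by tissue factor pathway inhibitor (*Tfpi*). Thrombomodulin (*Thbd*) turns thrombin from a clotting enzyme into an activator of the anticoagulant protein C, which the endothelial protein C receptor (*Procr*) binds. *F2r* encodes PAR1, the main receptor through which thrombin signals to cells. Clots are dissolved by plasmin, which tissue plasminogen activator (*Plat*) and urokinase (*Plau*, with its receptor *Plaur*) make from plasminogen, and protease nexin-1 (*Serpine2*) inhibits thrombin and both activators. In arteries, thrombomodulin and the protein C receptor are best known from the endothelium, whereas protease nexin-1 and tissue factor are also made by smooth muscle cells and the adventitia.

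These 9 genes were taken by symbol from a table of read counts for 55453 gene symbols, of which 14614 passed the low-count filter and were tested. All 9 genes passed it. RNA was sequenced from whole aortae of male C57BL/6 mice, 5 young (14.5 weeks) and 5 old (92.5 weeks), with 1 library per aorta and no other treatment. The mice were perfused with saline, fat around the aorta was removed, and young and old mice were killed at the same time. Replicates are named by the numbers in the sample titles.

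The libraries held between 19640401 and 22886153 counts each. Old replicate 2 stood apart in the share of counts on mitochondrial genes, with 11% against 4.50% to 6.51% in the other 9 libraries. Results that changed most without it are given with both values. The tissue label fits the markers measured: the 8 smooth muscle markers summed to at least 740120 normalized counts in every library, and 6 mesothelial markers to at most 41.9. Of the smooth muscle markers 1 was called, *Smtn*, which was higher in old aortae without overlap (log2 fold change 0.29, SE 0.07, edgeR adjusted p = 0.0217). However, 5 of the 8 had a negative log2 fold change, and the median of all 8 was -0.11. Of 8 fibroblast markers 1 was called higher and 1 lower, and 5 had a negative log2 fold change, with a median of -0.104. Of 6 hepatocyte markers 1 was called higher, but 4 had a negative log2 fold change, with a median of -0.332. None of 7 adipocyte or 6 red cell markers was called. Their median log2 fold changes were -1.0 and -0.0029, with 4 and 0 genes at an unadjusted p below 0.05 (edgeR). The adipocyte markers summed to 34424 normalized counts in young replicate 1 and to between 13105 and 22584 in the other 9 libraries. Normalized counts are counts divided by the size factor of the library and are given as mean ± SD over 5 mice. Differences between old and young aortae were tested with edgeR's quasi-likelihood test across all tested genes, and a gene was called at a Benjamini-Hochberg adjusted p below 0.05. Log2 fold changes are old over young.

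Of the 9 regulators, *Plat* was higher in old aortae, *Thbd* and *Procr* were lower, and the other 6 did not pass the test. Of all tested genes, 11.5% were called, 6.48% as higher and 4.99% as lower. In these 3 genes the age groups did not overlap. Groups without overlap were found in 9.92% of all tested genes, 5.37% with the old aortae above and 4.55% with them below. With each mouse left out in turn, old replicate 2 included, these 3 genes were still called, with edgeR adjusted p-values of at most 0.0347. The median log2 fold change of the 9 genes was 0.03, and that of all tested genes was 0.0034.

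**Figure D1:**
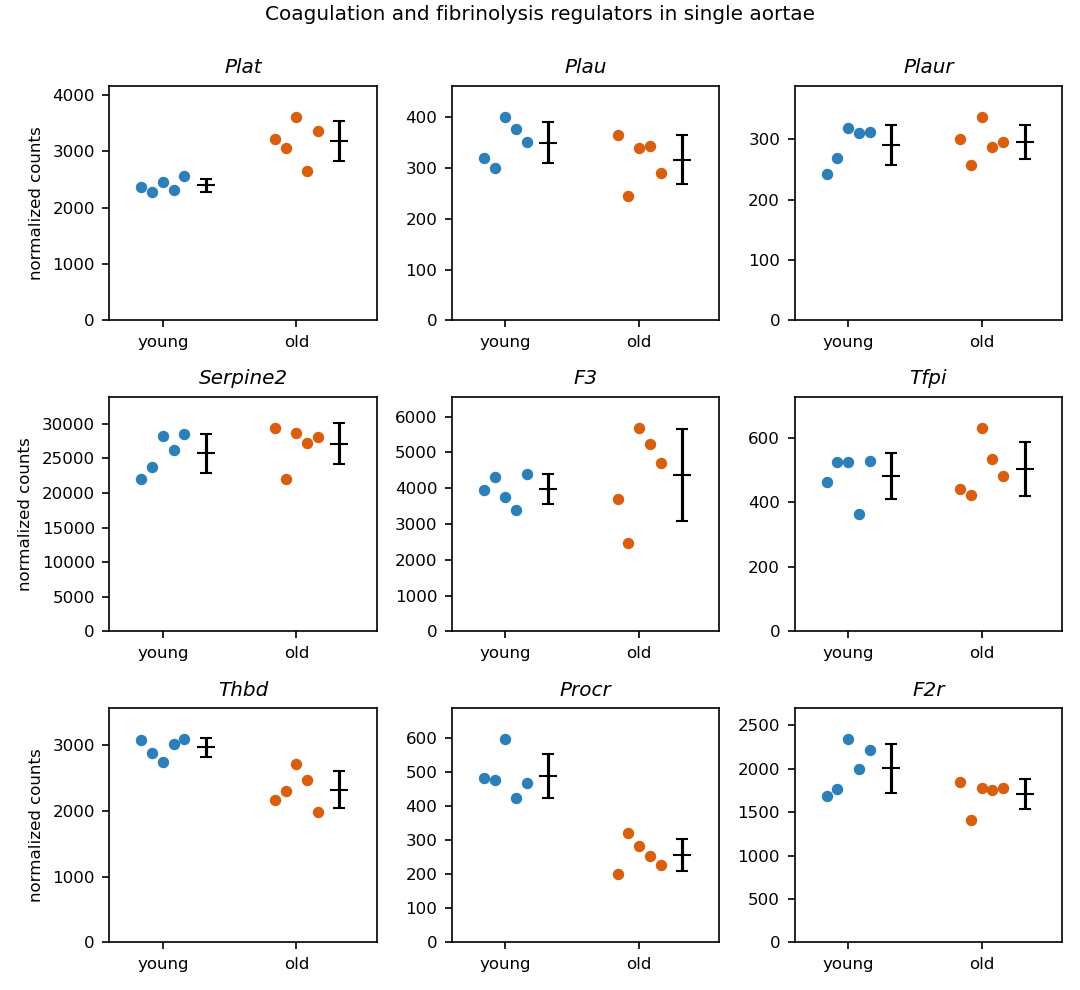
Normalized counts (vertical axes, from 0) of the 9 regulators in each young (blue) and old (orange) aorta, with mean ± SD as black bars over 5 mice. The old aortae lie above all young aortae in *Plat* and below them in *Thbd* and *Procr*, whereas the groups overlap in the other 6 genes.

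The anticoagulant receptors of the protein C pathway were both lower in old aortae. *Procr* (ENSMUSG00000027611, GRCm38 chr2:155751117-155755471, plus strand, protein coding) had 480.5, 475, 597, 422 and 466 normalized counts in young replicates 1 to 5. In old replicates 1 to 5 it had 201, 320.4, 283, 255 and 227. Every old aorta was below every young aorta, and the highest old value came from old replicate 2. The mean fell from 488 ± 65.2 to 257 ± 46.9 normalized counts (SD, n = 5), a log2 fold change of -0.92 (SE 0.13, 95% interval -1.19 to -0.64, edgeR adjusted p = 0.000662). This was place 145 by p among all tested genes. Omitting any single mouse left the log2 fold change between -1.01 and -0.83.

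*Thbd* (ENSMUSG00000074743, chr2:148404466-148408188, minus strand) is annotated as a single exon of 3723 bases. Young replicates 1 to 5 had 3082, 2880.0, 2748, 3017 and 3099 normalized counts. Old replicates 1 to 5 had 2164, 2300.3, 2707, 2474 and 1979. The groups did not overlap, but old replicate 3 lay close under young replicate 3. The mean fell from 2965 ± 149 to 2325 ± 280.4 (SD, n = 5), with a log2 fold change of -0.34 (SE 0.08, 95% interval -0.51 to -0.17, edgeR adjusted p = 0.0135). The ratio of *Thbd* to *Procr* counts within a library, which does not depend on how libraries are scaled, lay between 4.60 and 7.15 in young aortae and between 7.18 and 10.8 in old ones, so that the groups did not overlap, by a narrow margin.

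Of the 9 genes, 6 have a RefSeq promoter window on GRCm38.p6, which covers 250 bases before and 50 after an annotated start: *Procr*, *F3*, *Plaur*, *F2r*, *Serpine2* and *Tfpi*. Windows were searched on both strands for TGACTCA, the letters bound by AP-1 (dimers of Fos and Jun proteins), whose reverse complement is TGAGTCA. The letters stood in the windows of *Procr*, *F3*, *Plaur* and *F2r*, and not in those of *Serpine2* and *Tfpi*. They occur in 5.2% of all 32841 windows and in 3.81% of the 14078 windows of tested genes. The letters GGGCGG (GC box) and CACCC were searched for in the same way. GGGCGG stood in the windows of *F3*, *Plaur*, *F2r*, *Serpine2* and *Tfpi*, and in 60.5% of windows of tested genes. CACCC stood in the windows of *Procr*, *F3*, *F2r* and *Tfpi*, and in 63.7% of windows of tested genes. The sequences upstream of the annotated gene are shown for the 4 genes with AP-1 letters, of which *Procr* was called, to let the surroundings of these letters be compared. Each is written 5′ to 3′ on the strand of the gene, with the AP-1 letters in capitals. A match is a description of the sequence and no measurement of binding.
Procr, chr2:155750967-155751116, plus strand: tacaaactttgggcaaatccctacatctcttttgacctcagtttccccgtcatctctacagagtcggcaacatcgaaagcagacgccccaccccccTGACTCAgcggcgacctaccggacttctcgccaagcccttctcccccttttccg
F3, chr3:121723287-121723536, plus strand: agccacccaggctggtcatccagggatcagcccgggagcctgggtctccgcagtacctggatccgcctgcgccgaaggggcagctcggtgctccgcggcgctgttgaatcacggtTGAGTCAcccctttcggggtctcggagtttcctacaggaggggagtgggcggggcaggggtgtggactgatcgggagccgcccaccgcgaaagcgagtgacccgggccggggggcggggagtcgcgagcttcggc
Plaur, chr7:24462233-24462482, plus strand: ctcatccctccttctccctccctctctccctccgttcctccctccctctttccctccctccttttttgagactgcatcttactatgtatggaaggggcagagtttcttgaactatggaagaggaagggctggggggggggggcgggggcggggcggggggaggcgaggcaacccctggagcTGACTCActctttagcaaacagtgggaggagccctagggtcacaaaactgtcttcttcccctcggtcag
F2r, chr13:95618488-95618716, minus strand: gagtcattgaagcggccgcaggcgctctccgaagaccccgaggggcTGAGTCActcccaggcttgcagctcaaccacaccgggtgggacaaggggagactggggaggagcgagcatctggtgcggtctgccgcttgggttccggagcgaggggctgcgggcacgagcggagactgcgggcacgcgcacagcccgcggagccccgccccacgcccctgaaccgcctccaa
The AP-1 letters began 154 bases before the RefSeq start in *Procr*, 135 bases in *F3*, 69 bases in *Plaur* and 204 bases in *F2r*.

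Genes of AP-1 subunits and other immediate-early genes, which cells switch on within minutes of a stimulus, moved in both directions. Of 18 such genes, 3 were lower in old aortae and 1 was higher. *Atf3*, an AP-1 partner, fell from 2725 ± 1246 to 557 ± 194 normalized counts (log2 fold change -2.28, SE 0.39, edgeR adjusted p = 0.00596), and *Fosl2* from 4579 ± 873 to 2788 ± 669 (log2 fold change -0.71, SE 0.18, edgeR adjusted p = 0.0309). *Junb* rose from 1181 ± 260.3 to 2009 ± 370 (log2 fold change 0.77, SE 0.16, edgeR adjusted p = 0.00957). The call of *Fosl2* was lost without any of 4 single mice, old replicate 2 among them. With the replicate number as a block, *Atf3* had an edgeR adjusted p of 0.0703 and *Fosl2* one of 0.12. The part of these genes in the values of the regulators was not tested.

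*Procr* and *Thbd* were set beside 11 endothelial markers, of which 1 was called lower and 0 higher. This was *Tek*, which encodes the angiopoietin receptor Tie2 (log2 fold change -0.87, SE 0.23, edgeR adjusted p = 0.0381), and its call was lost with the omission of any of 6 of the 10 mice. The call of *Tek* was also lost with the replicate number as a block (edgeR adjusted p = 0.178) and without the low-count filter (edgeR adjusted p = 0.101). Of the 11 markers, 10 had a negative log2 fold change, with a median of -0.555, from -1.08 for *Emcn* to -0.04 for *Kdr*, and *Erg* had 0.14. An unadjusted p below 0.05 (edgeR) was found for 7 of the markers. *Emcn* and *Pecam1* were close to a call, with edgeR adjusted p-values of 0.0538 and 0.0554. Young replicates 1 to 5 had marker sums of 27267, 18900, 30321, 20444 and 20949 normalized counts. Old replicates 1 to 5 had sums of 14722, 22857, 12223, 17363 and 13427. The groups overlapped through old replicate 2, and no marker was at 0. In whole tissue, fewer cells of a type and less RNA per cell cannot be told apart.

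Relative to this sum, the log2 ratio of *Procr* was -5.58 ± 0.19 in young aortae and -5.95 ± 0.32 in old ones (SD, n = 5), and the groups overlapped because old replicate 3, at -5.43, lay among the young aortae. The log2 ratio of *Thbd* to the sum was -2.97 ± 0.33 in young and -2.77 ± 0.40 in old aortae, with overlap, and the difference of 0.203 was 0.34 without old replicate 2, 0.0551 without old replicate 3 and 0.0788 without young replicate 3. In a fit with the mean log2 level of the 11 markers as a covariate, chosen after the data were seen, the log2 fold change was -0.74 for *Procr* (SE 0.14, edgeR adjusted p = 0.00558) and -0.37 for *Thbd* (SE 0.10, edgeR adjusted p = 0.0313). For *Thbd* the ratio to the sum and this fit thus had opposite signs. Most of the markers had a negative log2 fold change, so the covariate was not independent of age. *Klf2* and *Klf4*, transcription factors that induce thrombomodulin in endothelium, were not called, although *Klf4* (log2 fold change -0.41, edgeR adjusted p = 0.0735) was called without old replicate 2 (log2 fold change -0.51, edgeR adjusted p = 0.0236) and without young replicate 5 (edgeR adjusted p = 0.0428). They had a joint sum of 2699.8 to 4466 normalized counts in young aortae and 1783 to 3538 in old ones.

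**Figure D2:**
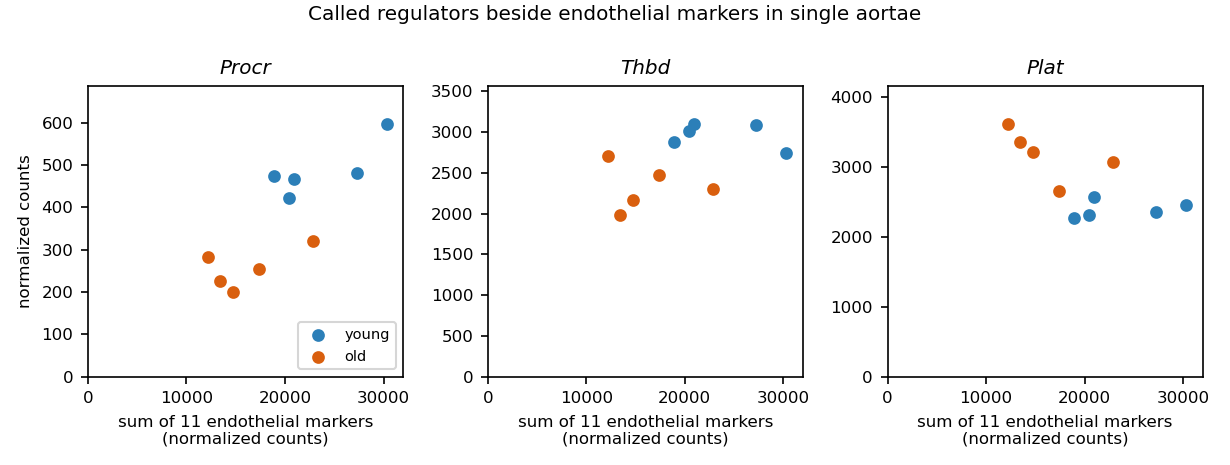
Normalized counts of *Procr*, *Thbd* and *Plat* (vertical axes, from 0) against the sum of 11 endothelial markers in normalized counts (horizontal axes), with 1 point per young (blue) or old (orange) aorta. The 4 old aortae other than replicate 2 have marker sums of 12223 to 17363 counts, below all young aortae, and old replicate 2 lies among the young aortae on the horizontal axis but with the other old aortae in *Procr* and *Thbd*.

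*Plat*, the gene of tissue plasminogen activator, was the only regulator that was higher in old aortae. It lies on chromosome 8 (ENSMUSG00000031538, chr8:22757727-22782844, plus strand). Young replicates 1 to 5 had 2363, 2275, 2456, 2313 and 2567 normalized counts, and old replicates 1 to 5 had 3219.8, 3066, 3617, 2653 and 3364. The lowest old aorta was just above the highest young one. The mean rose from 2395 ± 118 to 3184 ± 359 (SD, n = 5), a log2 fold change of 0.42 (SE 0.08, 95% interval 0.26 to 0.58, edgeR adjusted p = 0.00350). With the endothelial markers as a covariate the log2 fold change was 0.36 (SE 0.09, edgeR adjusted p = 0.0261). The log2 ratio of *Plat* to the endothelial sum was -3.28 ± 0.28 in young and -2.31 ± 0.48 in old aortae and did not overlap.

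The urokinase arm of fibrinolysis was not called. *Plau* (chr14:20836660-20843385) averaged 349.5 ± 40.9 normalized counts in the young group and 316 ± 48.5 in the old group (log2 fold change -0.14, 95% interval -0.39 to 0.11, edgeR adjusted p = 0.495), and its log2 fold change was -0.0629 without old replicate 2. *Plaur* (chr7:24462484-24475968) had 290.3 ± 33.3 and 295 ± 28.8 (log2 fold change 0.03, 95% interval -0.18 to 0.25, edgeR adjusted p = 0.867). The ratio of *Plau* to *Plaur* counts was 1.12 to 1.32 in young and 0.949 to 1.21 in old aortae. Without old replicate 2 the log2 fold change of *Plaur* was 0.0746, and its direction turned when young replicate 1 or old replicate 3 was left out.

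*Serpine2* (chr1:79794197-79861180) had 22033, 23758, 28299.8, 26236 and 28457 normalized counts in young replicates 1 to 5. The old replicates had 29448, 22028, 28729, 27259 and 28152. Both groups spanned nearly the same range. Its log2 fold change was 0.08 (SE 0.09, 95% interval -0.12 to 0.29, edgeR adjusted p = 0.632), and 0.144 without old replicate 2. The log2 ratio of *Plat* to this inhibitor was -3.42 ± 0.12 in young aortae and -3.09 ± 0.20 in old ones (SD, n = 5), a difference of 0.33, but old replicate 4 at -3.36 lay among the young aortae. For *Plau* over *Serpine2* the log2 ratio was -6.20 ± 0.11 in young and -6.43 ± 0.12 in old aortae, also with overlap.

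The starter of coagulation and its inhibitor were not called. *F3* (chr3:121723537-121735048) had 3962, 4324, 3756, 3382 and 4409 normalized counts in young replicates 1 to 5. The old replicates had 3701, 2481, 5693, 5228 and 4696. The old aortae spread over a wider range than the young ones, with both the lowest value, in old replicate 2, and the 3 highest. The log2 fold change was 0.14 (SE 0.19, 95% interval -0.28 to 0.57, edgeR adjusted p = 0.689), and without old replicate 2 it was 0.29 (edgeR adjusted p = 0.152). *Tfpi* (chr2:84432855-84476775) averaged 480.3 ± 71.3 normalized counts in the young group and 502 ± 83.4 in the old group (log2 fold change 0.07, 95% interval -0.20 to 0.34, edgeR adjusted p = 0.765). Without old replicate 2 its log2 fold change was 0.124. The ratio of *F3* to *Tfpi* counts was 8.33 ± 0.78 in young and 8.57 ± 1.62 in old aortae, and the difference of their log2 ratios was 0.0212, or 0.152 without old replicate 2.

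*F2r* (chr13:95601803-95618487) encodes the thrombin receptor PAR1. It had 1689, 1770.0, 2347, 1993 and 2218 normalized counts in young replicates 1 to 5, and the old replicates had 1845, 1412, 1780.1, 1753 and 1772. The groups overlapped, since young replicates 1 and 2 lay among the old aortae. Its log2 fold change was -0.22 (SE 0.10, 95% interval -0.43 to -0.0066), with an unadjusted p of 0.0442 and an edgeR adjusted p of 0.174, and it did not pass. Over the omission of single mice the edgeR adjusted p ranged from 0.0612 to 0.340.

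Per kilobase of exonic length, *Serpine2* had the highest level of the 9 genes in both groups, with 3108 ± 341 normalized counts per kilobase in young aortae and 3273 ± 357 in old ones (SD, n = 5). *F3* came next with 1569.7 ± 167 and 1725 ± 509 normalized counts per kilobase, then *Thbd* with 796 ± 40.0 and 624 ± 75.3. The lowest level was that of *Tfpi*, with 87.9 ± 13.1 and 91.9 ± 15.3 normalized counts per kilobase. In young aortae neighbours in this order did not overlap, except for *Plaur* and *Tfpi*. In old aortae each overlapped its neighbour among *Thbd*, *F2r* and *Plat*, and again among *Plau*, *Procr*, *Plaur* and *Tfpi*. *Procr* stood between *Plat* and *Plau* in young aortae with 240.4 ± 32.1 and beside *Plau* and *Plaur* in old aortae with 127 ± 23.1.

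**Figure D3:**
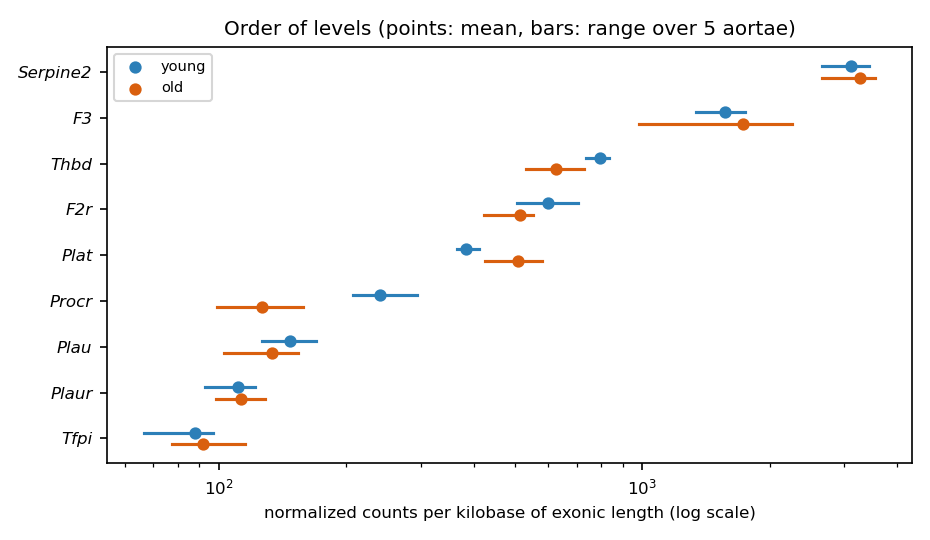
Levels of the 9 regulators in normalized counts per kilobase of exonic length (horizontal axis, log scale), as mean (points) and range (bars) over 5 young (blue) and 5 old (orange) aortae. *Serpine2* is highest and *Tfpi* lowest in both groups, and *Procr* moves from 240.4 to 127.

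Other genes of coagulation and fibrinolysis were sought in 4 lists of 39 genes, of which 19 passed the low-count filter. Of these, 2 were called higher and 2 were called lower. The median log2 fold change was -0.10. With the endothelial markers as a covariate, 1 of them, *S100a10*, was called. Most genes of plasma proteins made by the liver were too low to be tested. Thus plasminogen (*Plg*), the substrate of both activators, had 72 counts over the 5 young libraries and 56 over the 5 old ones, and protein C (*Proc*), the ligand of *Procr*, had 17 and 9. Both were chosen after their values were seen.

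Of 16 coagulation factor genes, 7 were tested and 1 was called. Without old replicate 2, *Vwf* and *F8* were called as well, which made 3. *F13a1*, the A subunit of the factor that cross-links fibrin, rose from 1946 ± 251 to 2995 ± 737 normalized counts (SD, n = 5; log2 fold change 0.63, SE 0.15, edgeR adjusted p = 0.0197). Without the low-count filter it did not pass (edgeR adjusted p = 0.066). Old replicate 3, with 4275, was far above the other old aortae. This gene is known from macrophages and platelets. All 8 macrophage markers had a positive log2 fold change, with 4 called and a sum of 7588 to 9772 normalized counts in young aortae and 9853 to 19645 in old ones. Of 8 platelet markers, 4 were tested and 1 was called higher, *Itga2b* (log2 fold change 0.70, SE 0.2, edgeR adjusted p = 0.0385). The platelet markers had a sum of 291 to 446 normalized counts in young aortae and 419.7 to 699.9 in old ones. Most of this sum came from *Pf4*, which was not called (edgeR adjusted p = 0.0799), and *Gp1ba* had a log2 fold change of -1.40 (SE 0.45, edgeR adjusted p = 0.0605). The highest sum of both lists was that of old replicate 3, no marker was at 0 in all libraries, and the part of these cells in the rise was not tested. *Vwf*, the von Willebrand factor of endothelium and platelets and the gene with the most counts in this list, averaged 7701 ± 2272 normalized counts in the young group and 4079.6 ± 1895 in the old group and did not pass (log2 fold change -0.91, SE 0.31, edgeR adjusted p = 0.0946). Old replicate 2 had 7178 normalized counts of *Vwf*, against 2443 to 4398 in the other old aortae. Without it the log2 fold change was -1.22 (SE 0.24, edgeR adjusted p = 0.0145), and that of *F8*, the cofactor carried by von Willebrand factor, was -1.10 (SE 0.29, edgeR adjusted p = 0.033), against -0.81 (edgeR adjusted p = 0.124) with it.

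Of 8 further anticoagulant genes, 3 were tested and 0 were called by edgeR, with 0 at an unadjusted p below 0.05. *Pros1*, the gene of protein S, a cofactor of activated protein C, averaged 2313 ± 159 normalized counts in the young group and 2462 ± 184 in the old group (log2 fold change 0.10, 95% interval -0.05 to 0.24, edgeR adjusted p = 0.381). Of the 3 other protease-activated receptors, *F2rl1*, the gene of PAR2, fell from 132 ± 8.72 to 89.3 ± 15.9 normalized counts (log2 fold change -0.56, SE 0.13, edgeR adjusted p = 0.0168). Every old aorta was below every young one.

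Of 12 further fibrinolysis genes, 7 were tested, with 1 higher and 1 lower. *Serpini1*, the gene of neuroserpin, an inhibitor of tissue plasminogen activator, rose from 2026 ± 361 to 3005 ± 391 normalized counts (log2 fold change 0.58, SE 0.13, edgeR adjusted p = 0.0127), and the groups did not overlap. *S100a10*, which with annexin A2 binds plasminogen and its activator at the cell surface, fell from 2683 ± 63.1 to 2113 ± 135 (log2 fold change -0.34, SE 0.05, edgeR adjusted p = 0.00183). Its partner *Anxa2* had 10238 ± 692 and 9929 ± 909 normalized counts and was not called (edgeR adjusted p = 0.808). *Lrp1*, a receptor that clears activators bound to their inhibitors, had 32968 ± 3355 and 31012 ± 2304 normalized counts and was not called either (edgeR adjusted p = 0.583).

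**Figure D4:**
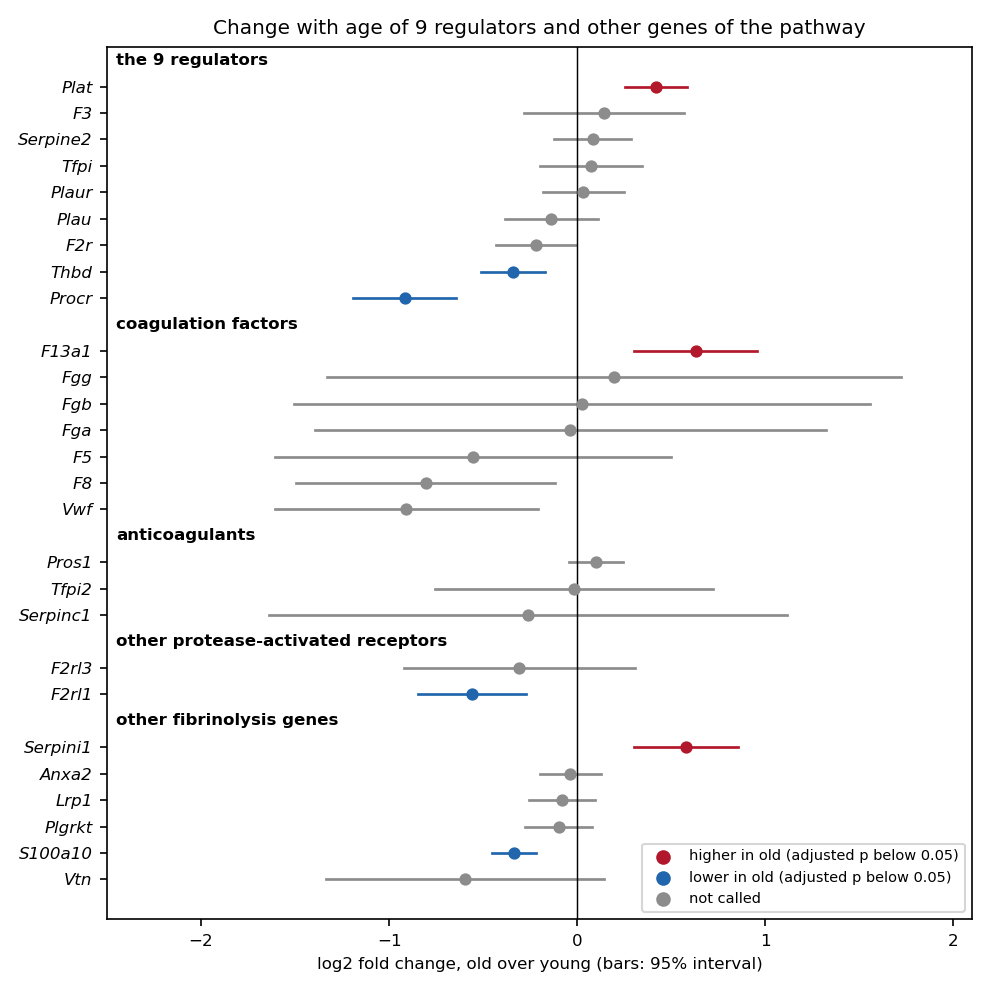
Log2 fold change, old over young (horizontal axis), of the 9 regulators and of tested genes of 4 pathway lists, with 95% intervals as bars. Genes called higher in old aortae are red, genes called lower are blue and the others are grey; *Plat*, *F13a1* and *Serpini1* are red, and *Procr*, *Thbd*, *F2rl1* and *S100a10* are blue.

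**Figure D5:**
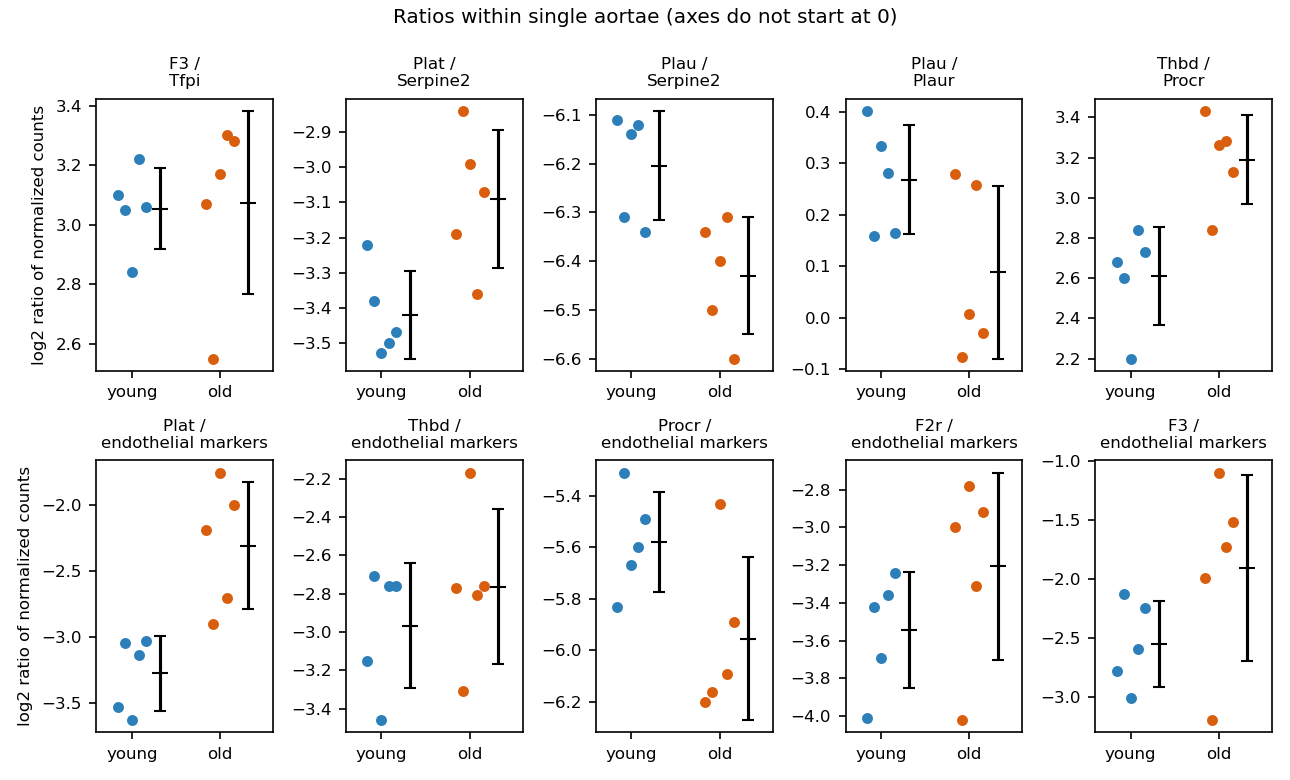
Log2 ratios of normalized counts (vertical axes, which do not start at 0) within each young (blue) and old (orange) aorta, for pairs of regulators in the upper row and for regulators over the sum of 11 endothelial markers in the lower row, with mean ± SD as black bars over 5 mice. The groups do not overlap in *Thbd* over *Procr* and in *Plat* over the endothelial markers and overlap in the other 8 ratios.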

How the data were processed

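Total RNA from 10 aortae, 1 per mouse, was made into stranded mRNA libraries. The authors deposited raw read counts per gene symbol. The submitters' processing notes name featureCounts from Subread 1.6.4, the aligner STAR (version 2.7.0f) and the read trimmer fastp (version 0.20.0). The strand setting and the treatment of reads with several matches were not given in the sources used here. Low-count genes were removed with filterByExpr, and old and young aortae were compared with TMM factors and robust quasi-likelihood tests in edgeR 4.0.16 (R 4.3.3), with Benjamini-Hochberg adjustment over 14614 genes. Normalized counts used DESeq2 1.42.0 size factors. Gene positions and exonic lengths came from GENCODE on GRCm38, and promoter sequences from RefSeq on GRCm38.p6. No exon of the 9 genes overlaps an exon of another gene. The genes and lists were chosen with earlier results of these data known. Besides the 9 genes, those named were the called genes and the gene with most counts of each pathway list. The 3 genes that most closely followed each called regulator were also named. Up to 3 called genes were named of the smooth muscle, endothelial, platelet and immediate-early lists. Called genes of the other marker lists were only counted. The values of 1 gene of the pathway lists are not reported here. *F8*, *Pecam1*, *Emcn*, *Kdr*, *Erg*, *Pf4*, *Gp1ba*, *Anxa2*, *Plg*, *Proc*, *Klf2* and *Klf4* were named after their values were seen. The 19 alternatives included DESeq2, limma-voom (limma 3.58.1), other scalings and filters and the omission of each mouse. A fit with endothelial markers as covariate and ratios to their sum were added after the data were seen. Scripts were tested on simulated data.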

Additional observations from a re-analysis of the deposited data

Results flagged for a closer look

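In 46 groups of 5 aortae, 1 value was sought that stood far from the other 4, and 2 were found. Chance flags about 1 in 20 such groups. *F2r* had 1412 normalized counts in old replicate 2, against 1753 to 1845 in the other old aortae. *F13a1* had 4275 normalized counts in old replicate 3, against 2452 to 2869 in the other old aortae.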

How the results depend on the processing

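*Plat*, *Thbd* and *Procr* were called under all 19 other settings and with the endothelial covariate, and none of the other 6 genes was called under any of them. The log2 ratio of *Thbd* to the endothelial sum was not lower in old aortae, with a difference of 0.203 and overlap. With the replicate number as a block, the number of genes called lower was 467 instead of 729, and *Plat* (edgeR adjusted p = 0.00647), *Thbd* (0.0393) and *Procr* (0.00119) were still called. Correlations between the deviations of young and old aortae of equal number ran from -0.30 to 0.13. They showed no pairing by number, but cannot exclude one. Over the omission of single mice the number of genes called lower was lowest at 474 when young replicate 4 was omitted and highest at 1139 when young replicate 1 was omitted. Some genes that did not pass the test changed direction. With the endothelial covariate the log2 fold change was -0.0497 for *Serpine2*, -0.0865 for *Plaur*, -0.187 for *F3* and -0.0278 for *Tfpi*, and 1 gene of the pathway lists was called instead of 4. Over the omission of single mice it ranged from -0.0256 to 0.0746 for *Plaur* and from -0.0249 to 0.124 for *Tfpi*. For *Klf2* it was 0.10 with the endothelial covariate, and for *Anxa2* it ranged from -0.0765 to 0.00171 over single mice. Without old replicate 2, 6 genes of the pathway lists were called instead of 4, and without the low-count filter 3. Per kilobase of the longest transcript, *F2r* took place 5 and *Plat* place 4, and *Plau* took place 8 and *Plaur* place 7. The cause of these changes was not tested. DESeq2 called 2325 genes in all, against 1676 with edgeR.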

Other observations

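The genes whose levels followed each called regulator most closely were sought among 14613 genes over the 10 aortae, after the mean of each age group was removed. For *Procr* they were *Dtx3l*, *Glmn* and *Fam111a*, with Pearson's r of 0.952, 0.950 and 0.931. For *Thbd* they were *Itga11*, *Prune1* and *Fancl*, with r of 0.937, 0.907 and 0.906. For *Plat* they were *Dynlt1b*, *Cox7a2* and *Med6*, with r of 0.911, 0.909 and 0.906. These are the highest of many values over 10 aortae that share libraries and scaling, and are given as a description. None of these 9 genes was called between old and young aortae.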
